A study of Arabidopsis thaliana with 22 samples.

Results

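The genes described here are TUB1 (AT1G75780, chromosome 1), TUB5 (AT1G20010, chromosome 1), TUB6 (AT5G12250, chromosome 5), TUB7 (AT2G29550, chromosome 2) and TUB9 (AT4G20890, chromosome 4), which encode beta-tubulin in Arabidopsis thaliana. Each was taken from the probe set that the platform annotation gives to that gene alone, and 5 of the 13513 probe sets with 1 named gene qualified. The beta-tubulin list holds 9 genes, and the other 4 have no probe set named for them alone and are not analysed here. The 5 genes were chosen by their measured daily course on these arrays, so that course is given as a description. Limma calls of these 5 genes are likewise a description and are not read as tests.

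The material was leaves of Col-0 plants at growth stage 3.90, grown on compost in a growth room with 12 h of light and 12 h of dark at 20 °C and 75% humidity. Every group shared this genotype and treatment and differed only in the hour of harvest, which was 0, 1, 2, 4, 8, 12, 13, 14, 16, 20 or 24 h. Each hour had 2 biological replicates, called replicate series 1 and 2 here, and each replicate was a pool of 20 plants measured on 1 Affymetrix ATH1 array, giving 22 arrays. Whether light or dark began at 0 h is not stated in the labels. For the arrays called 8 h and 16 h, after their source names, a separate age label reads 5 h and 14 h. In the array titles of series 1, 0 h and 24 h share a sample number, and 1 and 2 h are numbered after 24 h. Whether 0 h and 24 h of that series were separate harvests is not stated. The title of the series 2 array of 24 h ends in "repeat". GI, a clock gene, averaged 657 ± 77.8 at 20 h, its highest hour, and AKINBETA1, a subunit of the SnRK1 energy-sensing kinase, averaged 530 ± 75.2 at 12 h, its highest hour (SD, n = 2).

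Microtubules are hollow filaments built from dimers of alpha-tubulin and beta-tubulin. In plant cells they form the cortical array that guides cellulose deposition, as well as the spindle and phragmoplast of dividing cells. Plants carry several beta-tubulin genes whose proteins are very similar and whose transcripts differ in tissue and response. TUB1 is known for lower transcript levels in light-grown than in dark-grown seedlings, TUB9 for expression in pollen, and TUB6 as a transcript often used as a reference in quantitative PCR. Newly made tubulin is folded by the chaperonin CCT and a set of tubulin-folding cofactors before the dimer forms.

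Values are probe set intensities that the authors had scaled to a common level on every array, so a value is comparable across arrays for 1 probe set and not between probe sets. The mean without the lowest and highest 2% of values was 100.0 on every array, and array medians ran from 37.6 to 44.7. Leaf markers were bright on all arrays, with RCA, LHCB4.1 and LHCB4.2 between 694 and 6417, while the root markers PYK10 and EXPA7 stayed at or below 23.5 and the meristem marker CLV3 at or below 4.6. The remaining markers of those lists, and all flower and seed markers, had no probe set named for them alone. The ratio of 3' to 5' actin control signal, which rises when RNA is degraded, averaged 3.20 ± 1.21 in replicate series 2 and 1.85 ± 0.28 in replicate series 1 (SD, n = 11 arrays each). It was highest on the series 2 arrays of 1 h (6.31), 24 h (4.15) and 12 h (4.01), and its part in the results was not tested beyond leaving those arrays out. By another pair of actin controls the highest ratios were on the series 2 arrays of 1 h (10.2), 24 h (9.72) and 4 h (8.64). The series 2 array of 12 h had 4.57 there, so which arrays rank highest depends on the control pair. In pooled leaves, fewer cells of a type and less RNA per cell cannot be told apart. Whether transcripts of the other tubulin genes also bind these probe sets was not tested.

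TUB1, TUB5, TUB6 and TUB9 shared a low from 12 to 14 h and were back near or above their 0 h level at 20 h. TUB5 swung the most, and at 20 h it stood above every other hour. TUB7 had a course of its own, low at 8 and 12 h and higher again at 13 h. The plot of intensities over the day shows both arrays of each hour.

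**Figure D1:**
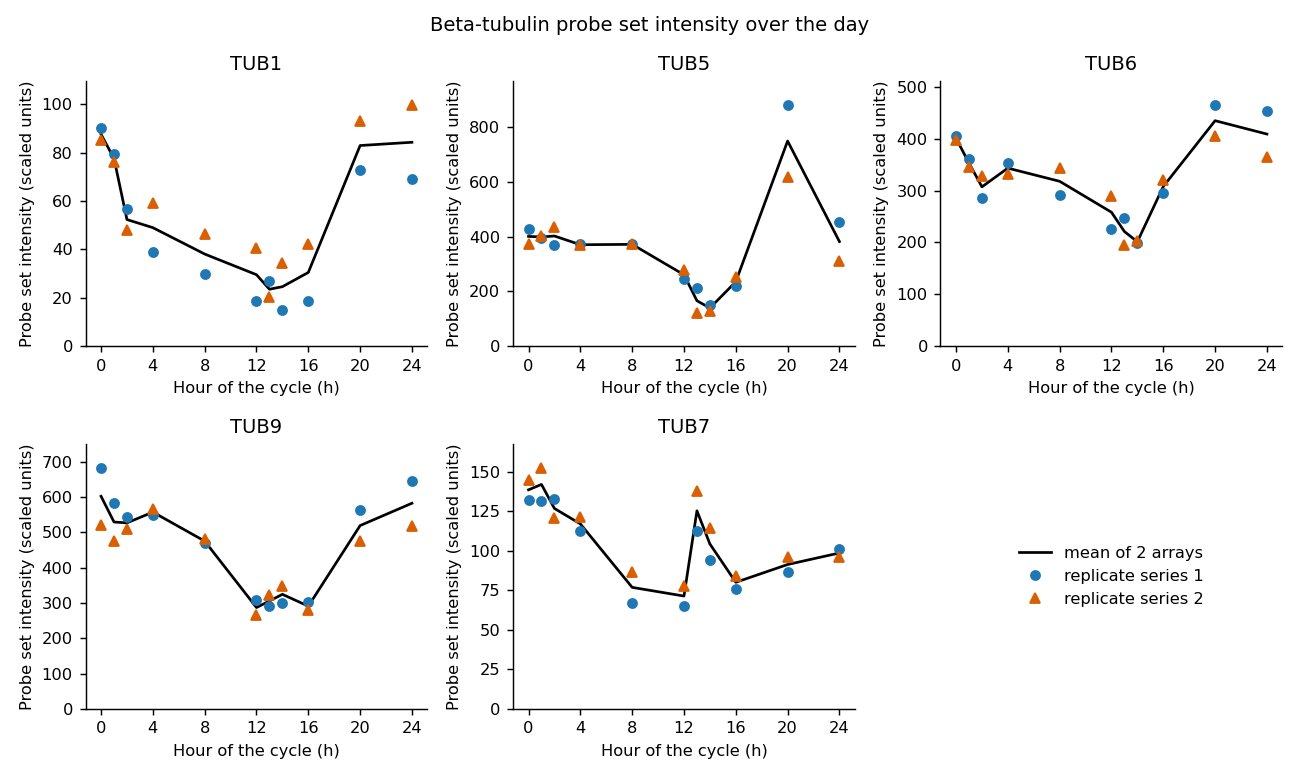
Probe set intensity (scaled units, linear axis from 0) of TUB1, TUB5, TUB6, TUB9 and TUB7 against the hour of the cycle, with circles for replicate series 1, triangles for replicate series 2 and a line through the mean of the 2 arrays. TUB1, TUB5, TUB6 and TUB9 dip between 12 and 14 h, with TUB5 reaching 881.8 and 619.3 at 20 h, while TUB7 has a local high of 112.4 and 138.0 at 13 h.

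TUB1 had intensities of 90.1 and 85.0 at 0 h, 79.2 and 75.9 at 1 h, 56.5 and 48.1 at 2 h, then 38.9 and 59.0 at 4 h in series 1 and 2. It then had 29.7 and 46.4 at 8 h, 18.5 and 40.5 at 12 h, 26.7 and 20.3 at 13 h, then 14.8 and 34.3 at 14 h. The last hours gave 18.8 and 42.1 at 16 h, 72.8 and 93.0 at 20 h, then 68.9 and 99.6 at 24 h. TUB1 was thus already lower at 2 h, stayed low until 16 h, and at 20 h both arrays were above all arrays from 2 to 16 h. The series 2 array was above the series 1 array at 7 of the 11 hours, 4, 8, 12, 14, 16, 20 and 24 h. Of the 22 values, 5 lay under 29.2, the highest intensity of any bacterial control probe set, so the depth of the TUB1 low is poorly measured.

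TUB5 was level over the early hours, with 428.0 and 374.7 at 0 h, 395.7 and 403.1 at 1 h, 368.5 and 437.3 at 2 h, 372.5 and 369.4 at 4 h, then 372.0 and 372.6 at 8 h. It had 244.3 and 277.7 at 12 h, 211.2 and 120.8 at 13 h, 149.9 and 128.8 at 14 h, then 219.1 and 252.1 at 16 h. At 20 h it had 881.8 and 619.3, and at 24 h 452.3 and 312.6. Both arrays of 12, 13, 14 and 16 h lay below every array of 0 to 8 h, and both arrays of 20 h lay above every other array of the day. The low was narrower than that of TUB1 and the 20 h level was a peak rather than a return, since the 24 h arrays overlapped those of 0 h.

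TUB6 had 404.4 and 396.8 at 0 h, 360.4 and 346.0 at 1 h, 285.8 and 328.4 at 2 h, 354.0 and 332.4 at 4 h, then 292.0 and 343.6 at 8 h. It had 226.3 and 290.0 at 12 h, 246.1 and 195.7 at 13 h, 199.2 and 203.3 at 14 h, then 294.3 and 321.2 at 16 h. The last hours gave 464.7 and 404.7 at 20 h and 452.7 and 365.1 at 24 h. TUB6 had the shortest low of the 4 genes, from 12 to 14 h, and by 16 h both arrays were within the range of 2 to 8 h.

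TUB9 had 683.1 and 521.9 at 0 h, 583.8 and 475.2 at 1 h, 543.6 and 510.5 at 2 h, 549.6 and 565.7 at 4 h, then 470.4 and 480.3 at 8 h. It had 308.5 and 265.5 at 12 h, 290.0 and 321.2 at 13 h, 300.2 and 348.9 at 14 h, then 301.7 and 280.2 at 16 h. The last hours gave 564.4 and 474.5 at 20 h and 645.9 and 519.5 at 24 h. All 8 arrays of TUB9 from 12 to 16 h lay below all 14 others, and the hours within that stretch overlapped.

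TUB7 had 132.3 and 144.7 at 0 h, 131.4 and 152.4 at 1 h, 132.9 and 120.5 at 2 h, then 112.6 and 121.3 at 4 h. It had 67.1 and 86.5 at 8 h, 64.7 and 77.9 at 12 h, 112.4 and 138.0 at 13 h, then 94.2 and 114.3 at 14 h. The last hours gave 75.9 and 84.1 at 16 h, 86.7 and 95.8 at 20 h, then 100.8 and 96.3 at 24 h. Both arrays of 13 h were above both of 12 h and both of 8 h, a step that none of the other 4 genes showed. Lying above both arrays of 12 h with both arrays of 13 h was not rare, since 17.5% of all probe sets kept for testing did so. TUB7 was back at its low level by 16 h, and both of its arrays of 24 h lay below both arrays of 0 h.

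Differences between hours are given on the scale log2(intensity + 4.01), which understates the change of low genes such as TUB1, with the standard error (SE) of a linear model over all 22 arrays. From the highest to the lowest hour, the hour means spanned 2.38 in TUB5 (5.20-fold), 1.77 in TUB1 (3.41-fold), 1.09 in TUB6 (2.13-fold), 1.05 in TUB9 (2.07-fold) and 0.96 in TUB7 (1.94-fold). Over the 13648 probe sets kept for testing, the 60% with the highest mean intensity, the median span was 0.78, and 94.8% of them spanned less than TUB5 and 63.5% less than TUB7. All 5 genes passed that filter. All 5 were also among the 26.8% of kept probe sets that differed over the 11 hours at an adjusted p under 0.05 in limma, and nothing is read from this because that course chose them. With the replicate series as a block the calls were 6055 in place of 3659 over the 11 hours, 3456 in place of 2152 for 12 h against 0 h, 1542 in place of 788 for 13 h against 12 h, and 1153 in place of 663 for 20 h against 16 h.

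Ranked by log2 hour mean, most neighbouring hours of a gene overlapped. For TUB1 the arrays of 1 h and 2 h were apart and those of all other neighbours overlapped. For TUB5 the arrays were apart between 20 h and 2 h, between 4 h and 12 h, and between 16 h and 13 h. For TUB9 the separations lay between 4 h and 2 h and between 8 h and 14 h, and for TUB6 the only one lay between 0 h and 1 h. For TUB7 the arrays of 24 h and 20 h and those of 20 h and 16 h were apart, with small distances.

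The depth of the low at 12 h, in the hour means, differed between the genes. At 12 h against 0 h the log2 difference was -1.53 ± 0.40 in TUB1, -1.05 ± 0.17 in TUB9, -0.92 ± 0.17 in TUB7, -0.64 ± 0.17 in TUB6 and -0.61 ± 0.24 in TUB5 (SE, n = 2 arrays per hour). In all 5 genes both arrays of 12 h lay below both of 0 h, as they did in 27.5% of all kept probe sets, and 4 of the 5, all but TUB5, were among the 7.55% called lower by limma. In all, 15.8% were called in either direction. Nothing is read from the calls of the 5 genes in this or the later comparisons, because the same course chose them. At 1 h against 0 h, none of the 5 was among the 1.71% called. For TUB1 the replicates differed in size, since series 1 had 18.5 at 12 h, against 90.1 at 0 h, a difference of -2.06, and series 2 had 40.5 at 12 h, against 85.0 at 0 h.

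In the hour means the steps down came at different hours too. TUB9 was lower at 12 h than at 8 h by a log2 difference of -0.72 ± 0.17. TUB5 was lower by -0.51 ± 0.24, with a further -0.69 ± 0.24 for 13 h against 12 h. TUB7 stepped down between 4 and 8 h, with -0.59 ± 0.17 for 8 h against 4 h, -0.71 in series 1 and -0.47 in series 2. The hour of that TUB7 step depends on the arrays whose age label reads 5 h. TUB1 had a step of -0.54 ± 0.40 for 2 h against 1 h, little larger than its SE, so the hour at which its low began is not settled. Against 0 h, its means were at -0.70 at 2 h, -0.82 at 4 h, -1.15 at 8 h and -1.77 at 14 h.

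Between 12 and 13 h the genes parted. TUB7 was higher at 13 h than at 12 h by 0.78 ± 0.17 on the log2 scale, with 0.76 in series 1 and 0.79 in series 2, while TUB5 was lower by a difference of -0.69 ± 0.24, with -0.21 in series 1 and -1.17 in series 2. TUB1 and TUB6 had -0.21 and -0.22 and changed in opposite directions in the 2 series, and TUB9 had 0.09. TUB7 was the only one of the 5 among the 5.77% of probe sets called in this comparison. Taken relative to the mean change of the other 4 genes since 0 h, TUB7 stood 0.91 and 1.23 higher at 13 h in series 1 and 2, and at 20 h its relative level was -0.75 and -0.76.

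**Figure D2:**
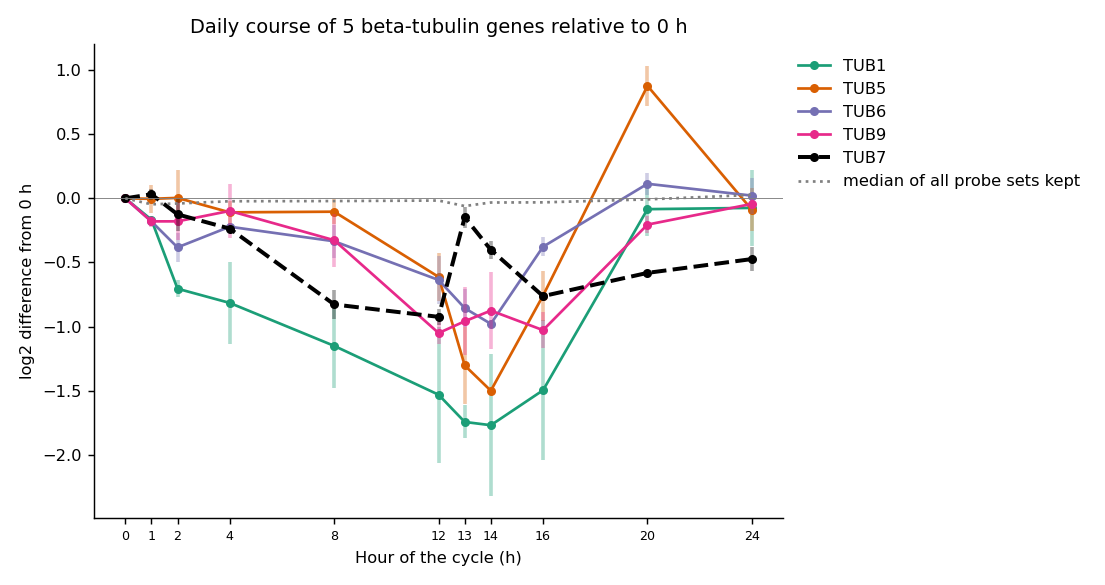
Log2 difference of the hour mean from 0 h for each beta-tubulin gene against the hour of the cycle, with vertical bars joining the values of the 2 replicate series and a dotted line for the median of the 13648 kept probe sets. TUB1, TUB5, TUB6 and TUB9 are low from 12 to 14 h and within 0.21 of 0 h or above it at 20 h, whereas TUB7 (dashed) is higher at 13 h than at 12 and 14 h and is at -0.47 at 24 h.

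The return fell between 14 and 20 h. At 16 h against 14 h the log2 difference was 0.74 ± 0.24 in TUB5, 0.60 ± 0.17 in TUB6 and 0.27 ± 0.40 in TUB1. In each of these it was positive in both series, and it was -0.15 ± 0.17 in TUB9 and -0.36 ± 0.17 in TUB7. The TUB1 difference was smaller than its SE and ran from -0.24 to 0.79 when 1 array was left out. At 20 h against 16 h the log2 difference was 1.64 ± 0.24 in TUB5, 1.41 ± 0.40 in TUB1, 0.82 ± 0.17 in TUB9, 0.49 ± 0.17 in TUB6 and 0.18 ± 0.17 in TUB7. In all 5 genes both arrays of 20 h lay above both of 16 h, as they did in 20.8% of kept probe sets, and 2 of the 5, TUB5 and TUB9, were among the 2.76% called higher by limma, with 4.86% called in either direction. Because the age label of the 16 h arrays reads 14 h, the same return was also read from 14 h, where 20 h against 14 h gave 2.38 in TUB5, 1.69 in TUB1, 1.09 in TUB6, 0.67 in TUB9 and -0.18 in TUB7.

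Taking as recovery the earliest hour after the low at which the log2 mean passed the middle of the gene's own span, TUB1, TUB5 and TUB9 recovered at 20 h in the mean and in each replicate series. TUB6 recovered at 16 h in the mean and in series 2, and at 20 h in series 1. TUB7 passed its middle at 13 h and was below it again at 16, 20 and 24 h. No array was taken between 16 and 20 h, so for TUB1, TUB5 and TUB9 the recovery is known only to lie between these hours, or between 14 and 20 h if the age label of the 16 h arrays holds. For TUB6 in the mean it lay between 14 and 16 h by source name, an interval that cannot be given if that age label holds. At 24 h against 20 h, TUB5 was lower by a log2 difference of -0.97 ± 0.24, -0.96 in series 1 and -0.98 in series 2, and the other 4 genes lay between -0.09 and 0.16. At 24 h against 0 h, the same time of day, 4 genes lay between -0.09 and 0.02 and TUB7 was at -0.47 ± 0.17. Since the series 1 arrays of 0 h and 24 h share a sample number, this is not read as a return after a day.

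The lowest hour was 14 h for TUB1, TUB5 and TUB6 in the mean and in series 1, and 13 h for these 3 in series 2. For TUB9 it was 12 h in the mean and in series 2 and 13 h in series 1, and for TUB7 it was 12 h in both series. A low in this part of the day was common, since 12.6%, 14.9% and 12.0% of kept probe sets had their lowest mean at 12, 13 and 14 h. Over the hours 13 to 24 against 1 to 12, all 5 genes had mean differences below 0. Their median was -0.16, and that of all kept probe sets was -0.006. TUB6 had 0.07 in series 1 and -0.20 in series 2, and TUB7 had -0.06 in both. TUB5 and TUB9 were among the 24.0% called by limma in either direction, with 1793 probe sets called lower and 1479 higher. The 12 h arrays, in the low of TUB1, TUB5, TUB6 and TUB9, count with the hours 1 to 12.

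The pairs of genes followed each other to different degrees, given here as Pearson's r over the 11 hours in series 1 and 2, with no test because the genes share arrays and scaling. TUB5 and TUB6 had 0.885 and 0.930, TUB1 and TUB6 0.858 and 0.879, and TUB1 and TUB9 0.926 and 0.681. TUB7 was the exception, with 0.176 and -0.095 against TUB5, 0.311 and -0.131 against TUB6, 0.632 and 0.043 against TUB1, and 0.517 and 0.421 against TUB9. The course of each gene in series 1 set against its own course in series 2 had r from 0.805 in TUB1 to 0.921 in TUB9, with 0.917 in TUB7, so the separate course of TUB7 was present in both series.

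The partner subunit was measured by 2 of 6 alpha-tubulin genes, and they moved in opposite ways. TUA6 had 501.9 and 585.2 at 12 h, against 1444.6 and 1071.6 at 0 h, and both arrays of 12 h were below both of 0 h. It fell by a log2 difference of -1.19 ± 0.23 (limma adjusted p = 0.00204), changed over the 11 hours (limma adjusted p = 0.00279), and both calls held in every alternative run. Its lowest hour was 13 h, with 465.6 and 481.1. It had 1157.1 and 813.8 at 20 h, against 703.0 and 656.6 at 16 h, a log2 difference of 0.51 that did not pass the test (limma adjusted p = 0.316). Its course had r of 0.913 and 0.933 with the mean course of the 5 beta-tubulin genes in series 1 and 2.

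TUA1 was highest at 12 and 13 h, hours at which TUB1, TUB5, TUB6 and TUB9 were low. It had 251.4 and 145.8 at 12 h and 247.4 and 180.2 at 13 h, against 125.2 and 61.1 at 0 h, with series 1 above series 2 at all 11 hours. The log2 difference for 12 h against 0 h was 1.09, which did not pass in the fit of all arrays without the replicate series (limma adjusted p = 0.0729) and passed with the series as a block (limma adjusted p = 0.000393). Without the series 1 array of 0 h the TUA1 difference was 1.59. Its course over all hours passed with the block (limma adjusted p = 4.83e-05) and not in the fit of all arrays without it (0.0669), though it did pass there without the series 1 array of 0 h (0.0346) or of 20 h (0.0376). At 20 h against 16 h the difference was -0.70 (limma adjusted p = 0.0248 with the block and 0.489 without). Its r with the beta-tubulin mean was -0.776 and -0.814.

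**Figure D3:**
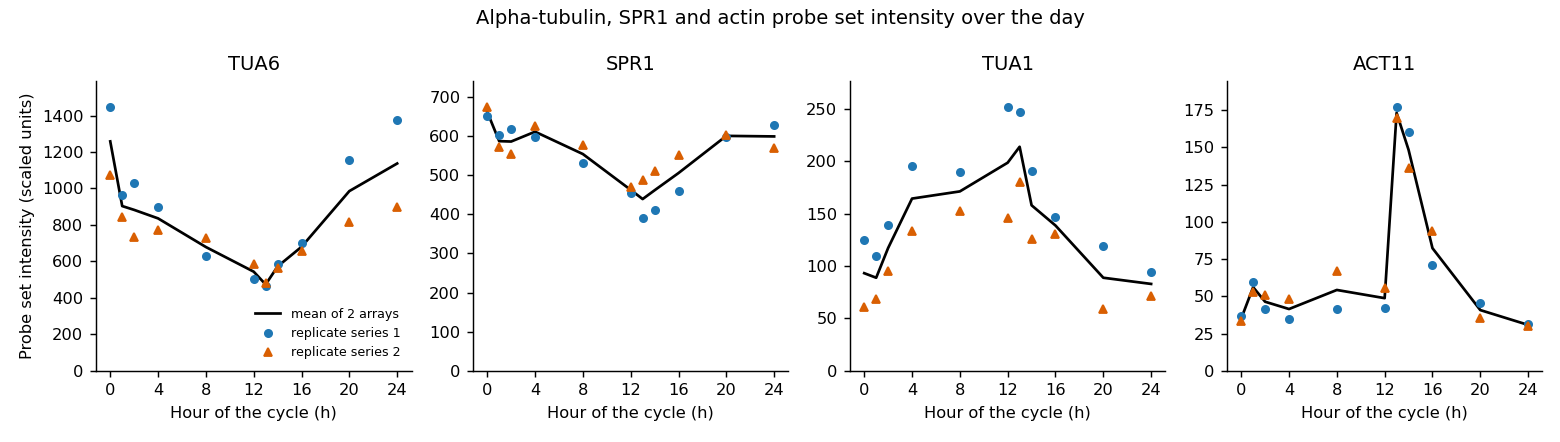
Probe set intensity (scaled units, linear axes from 0) of TUA6, SPR1, TUA1 and ACT11 against the hour of the cycle, with circles for replicate series 1, triangles for replicate series 2 and a line through their mean. TUA6 and SPR1 have their lowest mean at 13 h, the hour at which TUA1 and ACT11 have their highest.

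Tubulin folding genes, a list of 21 of which 10 were measured and kept, comprise CCT chaperonin subunits and folding cofactors. Against 0 h, 9 of the 10 were below 0 at 12 h and the median log2 difference was -0.36, compared with -0.02 over all kept probe sets, but 1 gene of the list passed the test. That gene, AT3G02530, had 152.8 and 143.8 at 12 h, against 235.8 and 212.8 at 0 h, a log2 difference of -0.58 (limma adjusted p = 0.0391). The call was lost with equal array medians (limma adjusted p = 0.0671), without the 8 h and 16 h arrays (0.063), without the 3 arrays of highest actin ratio (0.0797) and without any 1 of 6 arrays of 0, 12 and 16 h (0.0503 to 0.198). With the replicate series as a block 3 more fell, AT3G03960, AT5G20890 and AT5G26360, with log2 differences of -0.63, -0.46 and -0.45 (limma adjusted p = 0.0096, 0.0215 and 0.036). AT3G03960 also passed without the block under some other settings, such as the upper 40% of probe sets (limma adjusted p = 0.0491). Over the whole course none of the 10 passed, and those same 3 did with the block. PFI and POR, which encode the tubulin-folding cofactors E and C, had differences of 0.05 and -0.39 and did not pass.

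Of 28 genes for microtubule-associated proteins, 4 were measured and 3 kept, and at 12 h against 0 h 1 of the 3 passed. SPR1 (SPIRAL1), a small protein that binds cortical microtubules and is needed for straight cell growth, had 454.6 and 470.7 at 12 h, against 650.4 and 673.6 at 0 h. The 2 hours did not overlap, and SPR1 fell by a log2 difference of -0.51 ± 0.15 (limma adjusted p = 0.0323). That call was lost with equal array medians (0.0649), without the 3 arrays of highest actin ratio (0.124) and without any 1 of the 4 arrays compared (0.0941 to 0.138). Over the 11 hours SPR1 did not pass (limma adjusted p = 0.0586). It did with the replicate block (0.0201), and without the block under 4 other alternatives (0.0306 to 0.0485). Its course had r of 0.916 and 0.857 with the beta-tubulin mean. ATMAP65-6, which belongs to a family of microtubule-bundling proteins, and AT1G54460 had differences of 0.22 and 0.26 and did not pass. AT5G17410, the 1 kept gene of 8 for gamma-tubulin and its complex, which nucleates microtubules, was at 0.00 and spanned only 0.33 over the day.

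**Figure D4:**
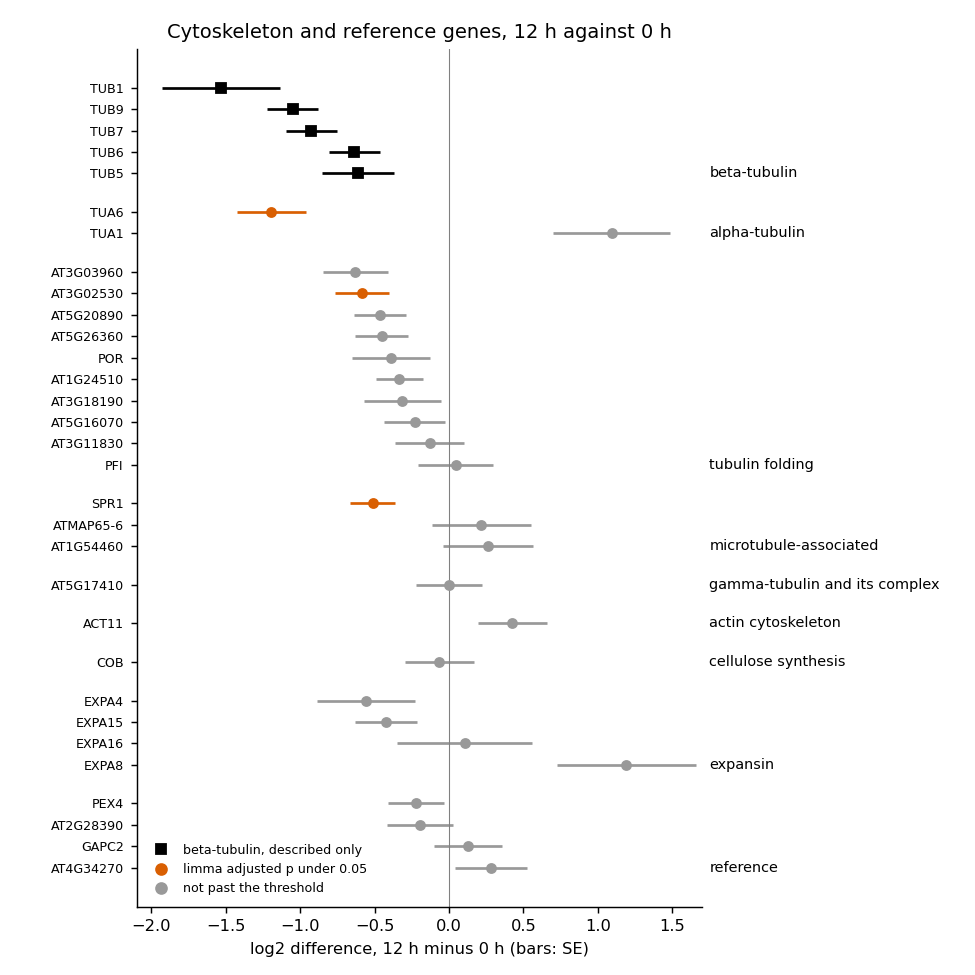
Log2 difference of 12 h minus 0 h (horizontal axis, bars for the SE) for each kept gene of 9 lists, with squares for the beta-tubulin genes, which are shown as a description, and for the other genes orange circles past an adjusted p of 0.05 in limma and grey circles for the rest. All 5 beta-tubulin genes lie between -1.53 and -0.61, and the other genes past the threshold are TUA6, AT3G02530 and SPR1.

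Actin, the other main cytoskeletal filament, was measured by ACT11 and ACT12, of 14 listed genes, and ACT12 was too dim to be kept. ACT11 had 176.8 and 169.4 at 13 h, against 42.2 and 55.3 at 12 h, and rose by a log2 difference of 1.76 ± 0.23 (limma adjusted p = 0.000235). It had 45.8 and 35.7 at 20 h, against 71.1 and 93.5 at 16 h, and fell by a difference of -0.94 (limma adjusted p = 0.0245). The 20 h call was lost when any 1 of the 4 arrays was left out (limma adjusted p = 0.0508 to 0.223). The 13 h peak of ACT11 stood at the hour of the local high of TUB7 and of the TUA1 maximum, while its r with the mean of the 5 beta-tubulin genes was -0.608 and -0.861.

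Few genes of wall growth were measured. COB, needed for oriented cellulose deposition and the 1 measured gene of 11 for cellulose synthesis, had a log2 difference of -0.06 for 12 h against 0 h and did not change over the day by the test (limma adjusted p = 0.426). Of 10 expansins, proteins that loosen the wall, 4 were kept, none passed at 12 h against 0 h, and EXPA8 and EXPA16 changed over the 11 hours (limma adjusted p = 0.00337 and 0.0334). The EXPA16 call over the hours was lost with no filter on low values (0.0634) and without any 1 of 11 arrays (0.0513 to 0.0977). With the mean of the 5 beta-tubulin genes, r in series 1 and 2 was 0.071 and 0.059 for EXPA8, 0.284 and 0.528 for EXPA16, 0.454 and 0.332 for EXPA4, and 0.188 and -0.275 for EXPA15. EXPA8 had its lowest mean of both series at 14 h and its highest at 20 h, as TUB5 did. In series 2 alone EXPA8 was highest at 12 h (703.9, against 439.7 at 20 h), while TUB5 was highest at 20 h. EXPA8 had 218.2 and 72.3 at 13 h, against 389.2 and 703.9 at 12 h, a fall with a log2 difference of -2.02 (limma adjusted p = 0.0177), which was lost without the 3 arrays of highest actin ratio (0.236) and without the series 2 array of 12 h (0.186) or of 13 h (0.259). EXPA16 was lower over 13 to 24 h than over 1 to 12 h by a difference of -0.97 (limma adjusted p = 0.00242). The 4 measured reference genes, PEX4, GAPC2, AT2G28390 and AT4G34270, lay between -0.22 and 0.28 at 12 h against 0 h, none passing. Over the 11 hours none passed in the fit without the replicate block, and GAPC2 and AT4G34270 did with it (limma adjusted p = 0.0242 and 0.0413). AT4G34270 also passed without the block when the 3 arrays of highest actin ratio (0.0332) or the series 2 array of 12 h (0.0241) were left out. It was lower over 13 to 24 h than over 1 to 12 h by a difference of -0.43 (limma adjusted p = 0.00873), a call lost without the 8 h and 16 h arrays (0.0566).

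The courses most like that of the beta-tubulin genes were sought among 7284 genes with 1 named probe set, by the lower of their 2 Pearson's r, 1 per replicate series over 11 hours, with the mean of the 5 standardised courses. The median score was -0.13 and 139 genes were above 0.8. The 10 highest were AT4G16146 (0.971), AT1G07050 (0.958), AT5G39410 (0.957), WLIM1 (0.955), AT5G50450 (0.954), AT1G34380 (0.954), AT1G67660 (0.951), DPE1 (0.951), AT3G50210 (0.944) and AT3G17020 (0.944). The 5 lowest were AT3G57020 (-0.986), AT4G01280 (-0.980), GR1 (-0.974), AT3G21390 (-0.972) and AT2G41120 (-0.972). These 5 scores are the r of series 2, the more extreme one, and in series 1 their r ran from -0.940 (GR1) to -0.831 (AT4G01280). WLIM1, a LIM-domain protein whose tobacco counterpart binds actin filaments, had its lowest mean of 89.9 at 14 h and its highest of 467 at 20 h. DPE1, the plastid disproportionating enzyme of starch breakdown, had its lowest mean of 17.6 at 14 h and its highest of 307 at 24 h, and GR1, a glutathione reductase, ran the other way with its lowest mean of 170 at 0 h and its highest of 750 at 14 h. These scores describe shape only, and all points share the 22 arrays and their scaling. Measured the same way, TUB1, TUB9, TUB6 and TUB5 scored 0.890, 0.876, 0.862 and 0.853 against a mean that includes them, and TUB7 scored 0.325.

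**Figure D5:**
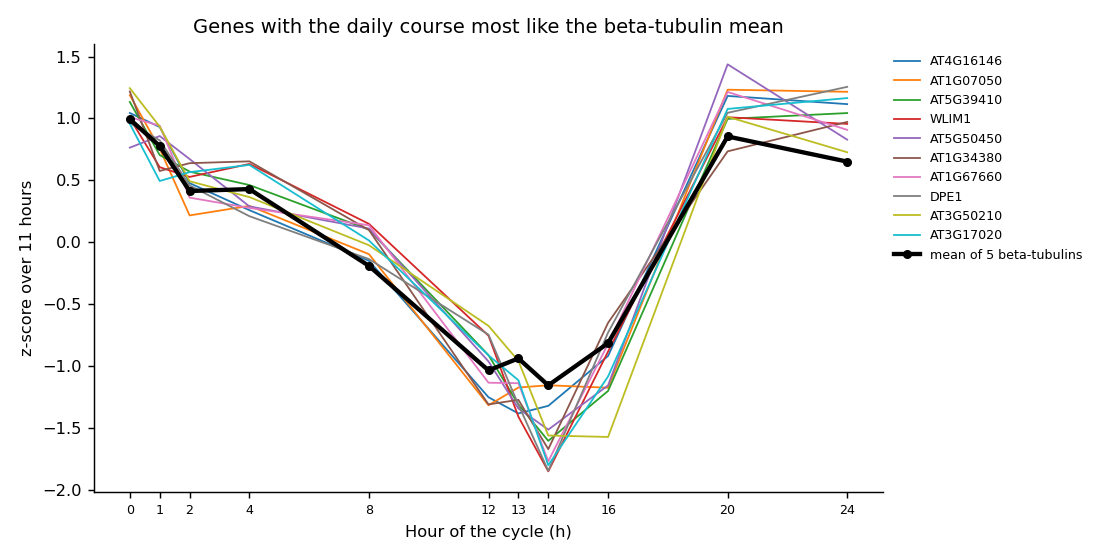
Standardised log2 course (z-score over the 11 hours, mean of both replicate series) of the 10 genes most like the beta-tubulin mean against the hour of the cycle, with the mean of the 5 beta-tubulin genes in black. All lines are low from 12 to 16 h and high at 0, 20 and 24 h. The black line stands slightly higher at 13 h than at 12 and 14 h, which holds in series 1 only. In series 2 the beta-tubulin mean is lowest at 13 h (-1.19).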

How the data were processed

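Per the labels, leaf RNA of 11 hours, 2 biological replicates each, was measured on 22 Affymetrix ATH1 arrays. The authors' deposited table gives 1 linear intensity per probe set and array. Judged from the values, arrays share a trimmed mean, set with software not given in the sources used here. Of 22810 probe sets, 64 controls were left out. The platform annotation names 1 gene for 13513, several for 503 and none for 8730 of the rest, and symbols follow RefSeq.

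Intensities were used as scaled and transformed to log2(intensity + 4.01), the constant being 10% of the median. The 13648 probe sets in the upper 60% by mean were fitted with limma 3.58.1 in R 4.3.3 (lmFit, eBayes with a trend, 1 mean per hour, 11 residual degrees of freedom, two-sided), with Benjamini-Hochberg adjustment over all of them and a threshold of 0.05. The procedure was run on simulated data with independent noise on every array. Those data had no replicate series effect, unlike the arrays here, so that run does not cover the pairing of the samples. The p-values reflect the spread of 2 pooled samples per hour, and this number of arrays limits the precision.

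The members and gene lists were chosen with earlier results of these data known. Named are all members, from each list the genes with the lowest p and those that moved against the rest, and the 10 genes most and 5 least like the members' mean course. The labels give both replicate numbers at every hour. Deviations from the hour means of same-numbered arrays correlated in all 55 pairs of hours (0.135 to 0.633), so the numbers pair the samples. A fit with the replicate block is given where it changes a call of a listed gene. For the beta-tubulin genes the calls with the block were not compared. The SE of those genes and the shares called beside them come from the fit without the block, which leaves the pairing out. At 12 h against 0 h, that fit called 1030 probe sets lower and the fit with the block 1742. The time course had 3659 calls without the block and 6055 with it. Alternatives were other pseudocounts, filters and scalings, no trend, the replicate block, leaving out each array, and leaving out the 8 h and 16 h arrays. Leaving out the 3 arrays of highest actin ratio was chosen after seeing the data.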

Additional observations from a re-analysis of the deposited data

Results flagged for a closer look

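LHCB4.2, a light-harvesting protein of photosystem II used here as a leaf marker, differed between the replicate series in its contrast of 13 to 24 h against 1 to 12 h. Its log2 difference was 0.75 in series 2 and 1.28 in series 1, and the interaction, series 2 minus series 1, was -0.53 (limma adjusted p = 0.0386). LHCB4.2 was higher in the later hours in both series. The interaction was not tested for the beta-tubulin genes.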

How the results depend on the processing

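No call of a listed gene other than the beta-tubulin genes reversed. With the replicate block the number of probe sets called was 6055 for the time course (3659 without), 668 for 1 h against 0 h (233), 3456 for 12 h against 0 h (2152), 1542 for 13 h against 12 h (788) and 1153 for 20 h against 16 h (663). Among listed genes other than the beta-tubulin genes, the block also changed calls of EXPA15 (time course, 13 to 24 h and 1 h), ATMAP65-6 (13 to 24 h) and LHCB4.1 (time course). These passed with it and not in the fit of all arrays without it. Beyond these and the calls given with the block, no other call of those genes changed. Calls with the block were not compared for the beta-tubulin genes or for genes named only by likeness of course. Without the 3 arrays of highest actin ratio the counts were 130 for 1 h, 1337 for 12 h and 354 for 13 h. Without the 8 h and 16 h arrays, 2181 probe sets were called for 13 to 24 h against 1 to 12 h (3272 with them), and 20 h against 16 h could not be fitted. Leaving out 1 array at a time gave 3215 to 3650 for the time course, 2713 to 3240 for 13 to 24 h, 32 to 288 for 1 h, 1241 to 2228 for 12 h, 329 to 831 for 13 h and 325 to 692 for 20 h. Why these counts changed was not tested. With equal array medians the calls for 20 h against 16 h were 318 higher and 350 lower, and with the authors' scaling 377 and 286. For 1 h against 0 h the block gave 503 higher and 165 lower, and the fit without it 205 and 28. The median span of the 5 beta-tubulin genes was 1.09. It was 0.97 when the pseudocount was the median of all values, which shrinks low intensities by its construction. It ran from 1.05 to 1.24 when 1 array was left out. The lowest hour then lay between 12 and 16 h for TUB1 and TUB9, 13 and 14 h for TUB5 and TUB6, and 8 and 12 h for TUB7. TUB1, the dimmest, is limited most by signal over background.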
